A study of Mus musculus with 4 samples.

Results

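Interactions at the loci of Prox1, Nr2f2 and Adarb2, 3 genes used as markers of interneurons born in the caudal ganglionic eminence, were described in lists of H3K27ac HiChIP contacts from mouse cortical interneurons that make somatostatin (SST) or vasoactive intestinal peptide (VIP). An interaction was taken when at least 1 of its paired anchors overlapped a window set around the gene in build mm9: chromosome 1, 191880000 to 192060000 (Prox1), chromosome 7, 77440000 to 77570000 (Nr2f2), or chromosome 13, 8150000 to 8850000 (Adarb2). These windows held 21 of the 15011 listed interactions, 1 of 8278 in SST and 20 of 6733 in VIP. HiChIP joins DNA ends that lie close together in the nucleus and keeps the joined fragments that carry a precipitated mark, here H3K27ac, an acetylation of active promoters and enhancers. Nuclei came from the cortex of adult C57BL/6 mice of the genotypes Sst-cre; Sun1 and Vip-cre; Sun1, in which Cre switches on a tagged nuclear envelope protein by which nuclei are captured (INTACT). Such a driver also marks cells that expressed it earlier in life. The labels describe 2 samples per cell type, and 1 list per cell type was analysed here, so no spread between replicates was available and no p-value was computed. The sources used here do not give age in weeks, sex or pooling of animals. The lists hold positions alone, with no read count or score, and read depth is unknown. The labelled cell types were not checked against markers, since the lists hold no expression values and genes other than these loci were not placed in mm9. Fewer nuclei with a contact and a weaker contact in each nucleus cannot be told apart in such data, and a contact that is not listed may still exist below the calling threshold.

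VIP interneurons arise from the caudal ganglionic eminence of the embryonic forebrain, and SST interneurons from the medial ganglionic eminence. Prox1 encodes a homeodomain transcription factor that caudal eminence interneurons keep after leaving the eminence and that supports their migration and maturation. Nr2f2 encodes the orphan nuclear receptor COUP-TFII, a transcription factor of the caudal eminence and of the neurons that migrate from it. Adarb2 encodes ADAR3, a brain RNA-binding protein of the adenosine deaminase family without known editing activity, and its transcript marks caudal eminence interneurons in the adult cortex.

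The assay cuts chromatin with MboI, which recognises GATC, so contacts are read near such sites. The bases before the transcription start of the 3 genes are shown to place these cutting sites, which are in capitals. They are from RefSeq, build GRCm38.p6, 5′ to 3′ along the gene's strand: chr1:190170828-190171077 on the minus strand for the first listed start of Prox1, chr7:70366747-70366996 on the minus strand for Nr2f2 and chr13:8202616-8202865 on the plus strand for Adarb2.
Prox1: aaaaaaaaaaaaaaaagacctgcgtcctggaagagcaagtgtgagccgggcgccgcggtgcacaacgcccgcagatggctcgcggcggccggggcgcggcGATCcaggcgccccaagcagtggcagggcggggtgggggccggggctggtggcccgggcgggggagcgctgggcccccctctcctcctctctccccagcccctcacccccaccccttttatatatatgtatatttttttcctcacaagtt
Nr2f2: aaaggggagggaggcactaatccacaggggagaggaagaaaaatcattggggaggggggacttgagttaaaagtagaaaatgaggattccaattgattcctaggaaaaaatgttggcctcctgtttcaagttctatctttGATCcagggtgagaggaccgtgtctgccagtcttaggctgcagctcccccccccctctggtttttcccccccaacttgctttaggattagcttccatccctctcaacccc
Adarb2: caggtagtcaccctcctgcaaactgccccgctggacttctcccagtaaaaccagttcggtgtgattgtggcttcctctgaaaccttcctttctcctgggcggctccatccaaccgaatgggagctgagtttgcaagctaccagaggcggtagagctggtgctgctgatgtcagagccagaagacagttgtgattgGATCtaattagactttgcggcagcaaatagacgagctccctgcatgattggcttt
Each of these stretches of 250 bases held 1 GATC, at 150 bases (Prox1), 110 bases (Nr2f2) and 55 bases (Adarb2) before the start, counted from the first base of the site. The second listed start of Prox1 had none. Of 32851 RefSeq promoters cut to the same length, 41.9% held the motif, which reads the same on both strands. Coordinates of this build and the mm9 anchors below cannot be set side by side, and whether an anchor covers one of these promoters was not determined.

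Interactions of the loci were listed mainly in VIP, and most of these were at Adarb2. Adarb2 had 14 VIP interactions (exact 95% Poisson interval 7.65 to 23.5) and 0 SST interactions (0 to 3.69). Nr2f2 had 5 VIP interactions (1.62 to 11.7) and 1 SST interaction (0.0253 to 5.57). Prox1 had 1 VIP interaction (0.0253 to 5.57) and 0 SST interactions (0 to 3.69). At Nr2f2 and Prox1 the intervals of VIP and SST overlapped. Per 1000 interactions of the VIP list the VIP counts were 2.08 at Adarb2, 0.743 at Nr2f2 and 0.149 at Prox1, in windows of 700, 130 and 180 kb. The Nr2f2 value of SST was 0.121 per 1000, and the VIP to SST ratio was 6.15 with an interval of 0.688 to 291, which includes 1. The ratio was 0, the opposite direction, when both anchors had to lie in the window or when only interactions of up to 200 kb were counted, since all 5 VIP interactions leave the window and exceed that length. No ratio is given for the other loci, where SST had none listed. All these intervals describe counting error alone and are too narrow where several interactions use the same anchor.

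An excess in either direction was common among windows of these widths. In windows of 700 kb laid end to end along each chromosome, VIP was at least 2-fold above SST per 1000 in 34.3% of the 1617 windows with an interaction of either list. The corresponding values were 36.7% of 4158 windows of 130 kb and 36.2% of 3511 windows of 180 kb. SST was at least 2-fold above VIP in 43.5% of the windows of 700 kb, 45.6% of those of 130 kb and 45.7% of those of 180 kb. With every listed interaction counted, each of the 3 loci lay in the class with more VIP; at Nr2f2 this turned under the settings named above. The numbers of interactions separated them further. Of the windows of 700 kb, 198 (12.2%) held at least 14 VIP interactions, and 27 (1.67%) held at least 14 with none from SST, as the Adarb2 window did. In the opposite direction, 54 windows held at least 14 SST interactions and none from VIP, a threshold not scaled to the longer SST list. Of the windows of 130 kb, 381 (9.16%) held at least 5 VIP interactions and at most 1 from SST, as Nr2f2 did. Of the windows of 180 kb, 903 (25.7%) held at least 1 VIP interaction and none from SST, as Prox1 did.

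**Figure D1:**
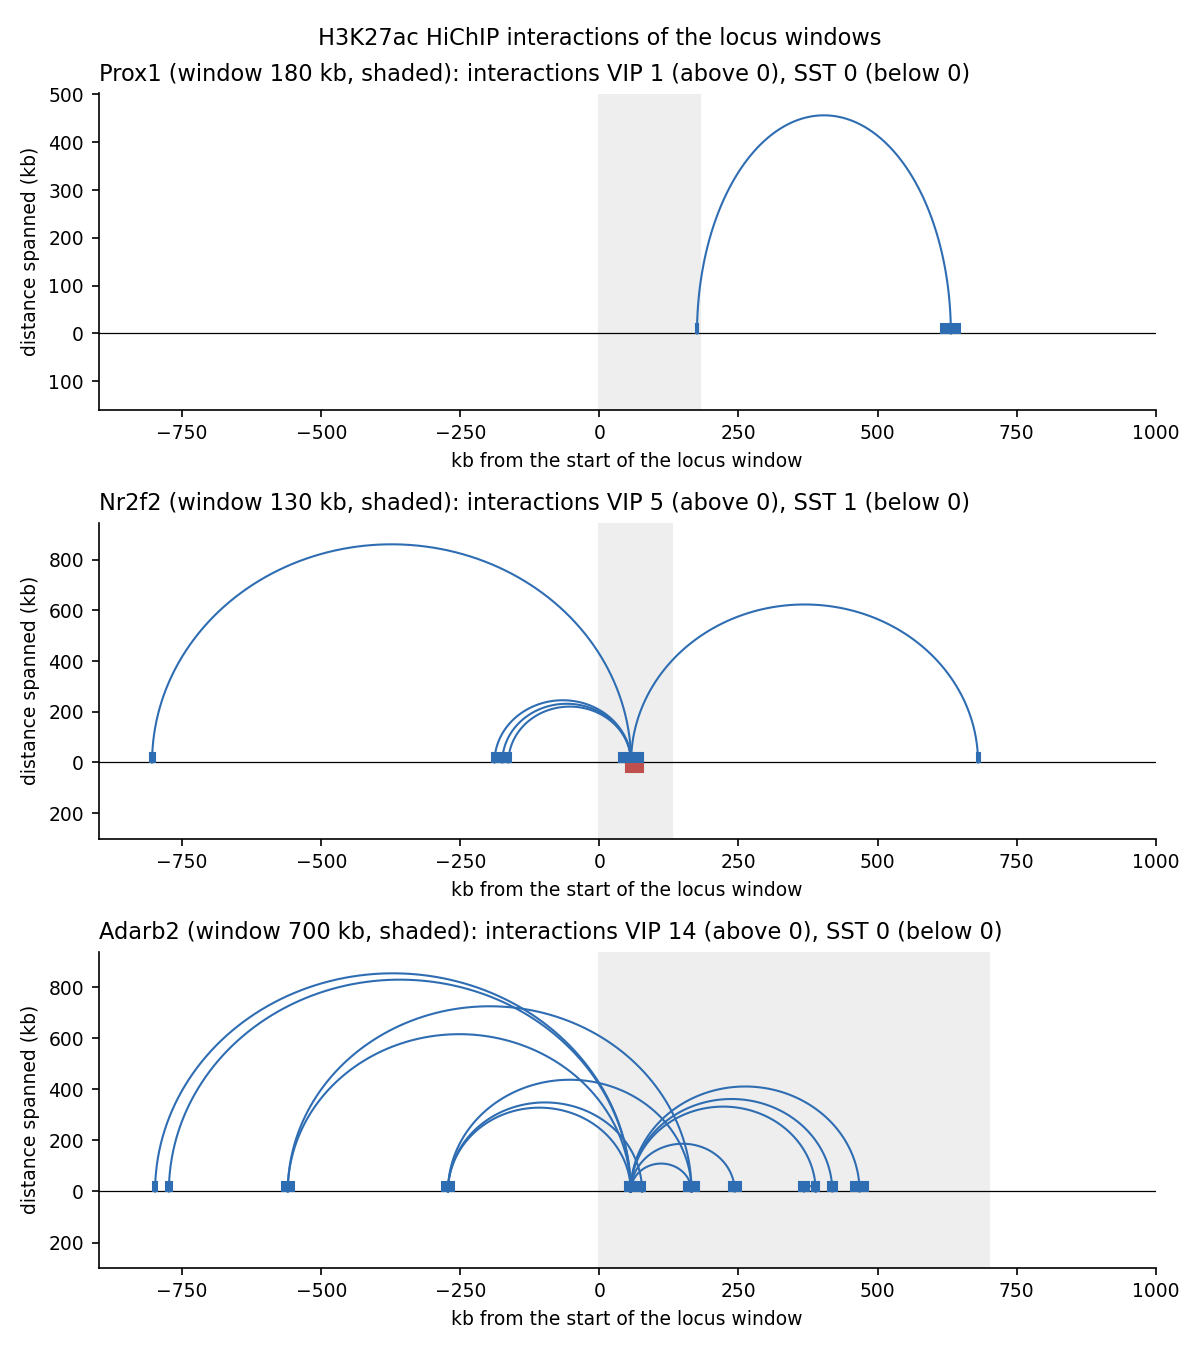
Each arc joins the midpoints of the paired anchors of 1 interaction, with VIP arcs above 0 and SST arcs below it; the horizontal axis gives kb from the start of the shaded locus window, the vertical axis the distance spanned in kb, and boxes are anchors. Prox1 has 1 VIP arc at the edge of its window, Nr2f2 has 5 VIP arcs from 1 anchor and an SST interaction of 16.9 kb too short to show as an arc, and Adarb2 has 14 VIP arcs and no SST anchor.

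**Figure D2:**
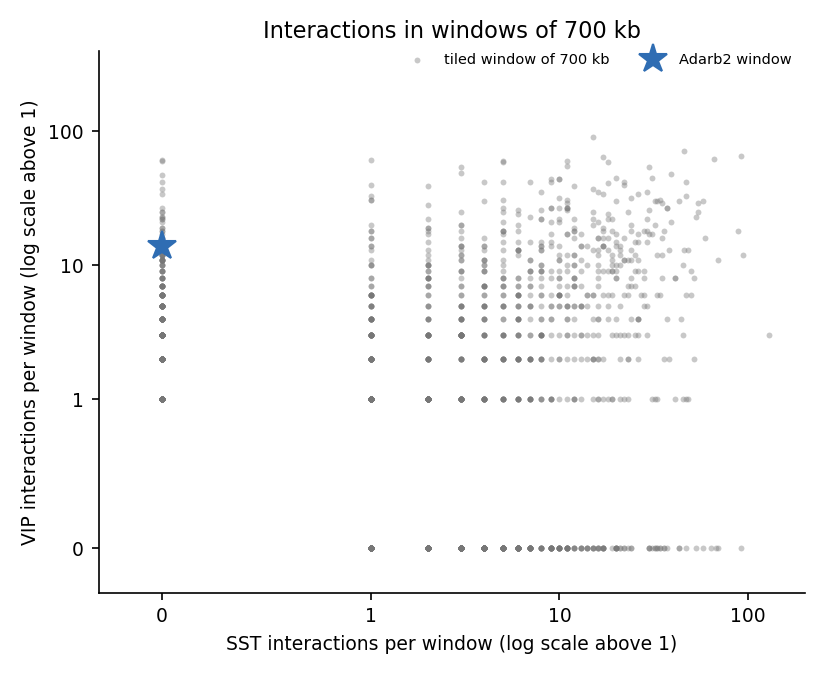
Each grey point is a tiled window of 700 kb with the number of SST interactions (horizontal) and VIP interactions (vertical) that touch it, on axes that are logarithmic above 1. The star marks the Adarb2 window with 0 SST and 14 VIP interactions, and 27 of the 1617 tiled windows had at least 14 VIP interactions and none from SST. The tiled windows include those that overlap the Adarb2 window.

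At Adarb2 the VIP list described a star of contacts around 1 anchor. This anchor, 8195299 to 8217274 on chromosome 13, was used by 10 of the 14 interactions, and 4 did not involve it. It is the lowest of the 8 VIP anchors inside the window and starts 45.3 kb from the window's lower edge. Adarb2 lies on the plus strand, so its transcription start is at its low-coordinate end, but whether this anchor covers it was not determined. In the whole VIP list 207 of 4850 anchors (4.27%) had 10 or more interactions, and 89 of those 207 (43.0%) overlapped no SST anchor. The median anchor of the list had 2.

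From this central anchor 6 interactions ran to anchors inside the window. The nearest partner, 8221084 to 8232448, was at 20.5 kb between midpoints, with only 3.81 kb between the anchors' edges. The next partners were 8302827 to 8328442 at 109 kb and 8382846 to 8403780 at 187 kb. The remaining inner partners were 8532188 to 8545448 at 333 kb, 8560973 to 8576262 at 362 kb and 8603020 to 8632274 at 411 kb. The central anchor was thus linked to each inner anchor except 8508189 to 8527411, whose only listed link was to the neighbouring anchor 8532188 to 8545448 at 21.0 kb. Of the 28 pairs that the 8 inner anchors could form, 7 were listed, and the shortest of them, at 20.5 and 21.0 kb, were between adjacent anchors. The inner anchors were 11.4 to 29.3 kb wide (median 20.1 kb, against 12.4 kb in the whole VIP list) and covered 22.4% of the window. The last 218 kb of the window held no anchor.

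The other 7 Adarb2 interactions left the window, and all 7 ran to its low-coordinate side. The central anchor was linked to 7866438 to 7889238 at 328 kb, to 7578787 to 7600971 at 616 kb, to 7370856 to 7381631 at 830 kb and to 7347588 to 7355197 at 855 kb, the longest interaction of the locus. The inner anchor 8302827 to 8328442 shared the partners at 7866438 (438 kb) and 7578787 (726 kb), and the inner anchor 8221084 to 8232448 shared the partner at 7866438 (349 kb). In this way the outer anchor at 7866438 was linked to 3 inner anchors and that at 7578787 to 2. In the RefSeq gene order of GRCm38, Pfkp is the next protein-coding gene on the low-coordinate side. The 10 entries between it and Adarb2 are not protein-coding, while Wdr37 follows Adarb2 directly on the other side. Which of these entries the mm9 anchors cover was not determined.

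**Figure D3:**
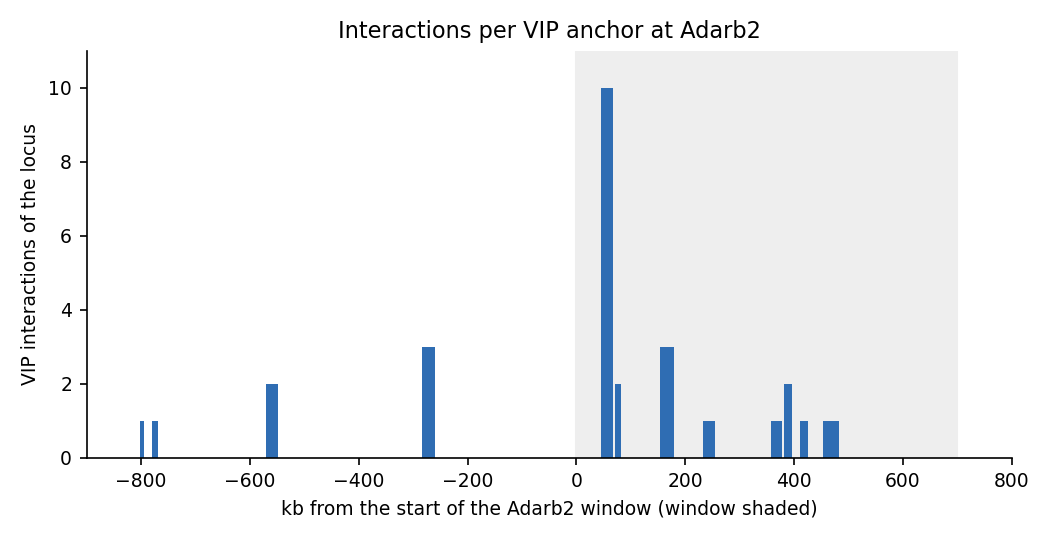
Bars show how many of the 14 VIP interactions of the Adarb2 locus involve each of its 12 anchors, with bar width to scale in kb and position in kb from the start of the shaded window. The anchor 45.3 kb into the window has 10, no other anchor has more than 3, and the 4 anchors outside the window all lie on the low-coordinate side.

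With no SST anchor in the window, none of the 14 Adarb2 interactions could be shared, so the 25.8% of the whole VIP list that had a counterpart in SST is no separate comparison here. The 4 anchors outside the window overlapped no SST anchor either; in the whole VIP list 43.5% of anchors did. The nearest SST anchors ended 1601 kb below the window and began 1029 kb above it. On the upper side the nearest VIP anchor began at the same base as that SST anchor, 9879183, so both lists were empty from the window's upper edge to that position. The stretch listed in VIP and empty in SST thus lay within the window and on its low-coordinate side.

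Nr2f2 was the only one of the 3 loci with interactions in both lists, and the lists described different contacts there. In VIP all 5 interactions started from 1 anchor, 77475054 to 77518907 on chromosome 7. It was 43.9 kb wide, a width reached by 2.06% of VIP anchors. Its partners were 77272668 to 77280244 at 221 kb, 77260438 to 77270196 at 232 kb and 77247210 to 77255645 at 246 kb, which lie next to each other, and the more distant 76631614 to 76640367 at 861 kb. These 4 were on the low-coordinate side, and 78117846 to 78123275, at 624 kb, was on the other. No partner was linked to another partner, and none took part in a further interaction. The partners were 5.43 to 9.76 kb wide and overlapped no SST anchor, while 43.5% of all VIP anchors did. The SST list had no anchor where they lay. In the RefSeq gene order of GRCm38 no protein-coding gene stands between Nr2f2 and Arrdc4 on the low-coordinate side, and the predicted gene Gm44812 and then Mctp2 follow on the other.

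In SST the single Nr2f2 interaction joined 77488081 to 77497959 with 77500921 to 77518907, at 16.9 kb between midpoints and 2.96 kb between edges. Only 3.35% of SST interactions were as short. Both of its anchors lay inside the wide VIP anchor, and the second ended at the same base, 77518907. This pair of SST anchors was 1 anchor in the VIP list, which therefore had no place for a link between them. Both SST anchors thus overlapped a VIP anchor, as 36.9% of all SST anchors did, while the interaction was not shared, as 21.4% of all SST interactions were. The 5 VIP interactions, all of 221 kb or more, had no counterpart in SST. Away from these anchors SST had nothing within 3105 kb above and 4863 kb below the window. When anchors within 5 kb of each other were merged, the SST interaction disappeared and 3 VIP interactions remained. The Nr2f2 locus thus had a listed anchor in both cell types, and its 5 long contacts were listed in VIP alone.

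At Prox1 the VIP list held 1 interaction and SST held none. The interaction joined 192053452 to 192057386 with 192494858 to 192528611 on chromosome 1, at 456 kb. The inner anchor was 3.93 kb wide, while 98.9% of VIP anchors were at least as wide, and ended 2.61 kb short of the window's upper edge. No anchor of either list lay in the 173 kb of the window below it. The next VIP anchor, 192081122 to 192092876, began 21.1 kb outside the window and had 3 interactions, so that the count at Prox1 was 4 with the window extended by 50 kb. The nearest SST anchors were 709 kb below and 1353 kb above the window.

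The partner of the Prox1 contact belonged to a dense group of VIP contacts next to the locus. Including the Prox1 anchor, 7 anchors between 192053452 and 192625286 were joined by 14 interactions. The SST list had no anchor in this stretch, so none of the 14 could be listed in SST. The 25.8% of the whole VIP list with a counterpart in SST is therefore no separate comparison here. Among the 6 anchors outside the window 13 of 15 possible pairs were listed, with distances of 26.3 to 465 kb. The partner anchor, 192494858 to 192528611, was 33.8 kb wide and was linked to each of the other 6. The Prox1 window thus touched the edge of this group by 1 of its 14 interactions. In the RefSeq gene order of GRCm38, the antisense transcript Prox1os and other entries that are not protein-coding lie between Prox1 and Rps6kc1 on this high-coordinate side.

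Over the 3 loci, the 20 VIP interactions spanned 20.5 to 861 kb with a median of 356 kb, against a median of 167 kb in the whole VIP list. Of the 20, 16 were longer than 200 kb, while 46.8% of the list was. An interaction longer than a window can be taken through either of its anchors, so this selection favours long interactions. The values of the whole list were not weighted for that. The medians were 356 kb at Adarb2 and 246 kb at Nr2f2. None of the 20 was listed in SST, which follows from the SST counts at the loci and is no further result. Of their 20 anchors 1 (5%), the wide one at Nr2f2, overlapped an SST anchor, against 43.5% of anchors in the whole VIP list. This too restates that the SST list was otherwise empty around the loci. The interactions share anchors, 10 of them at Adarb2 and 5 at Nr2f2 through 1 anchor each, so these counts rest on fewer independent positions than 20. The loci also differed in form, which was read from unlike sets. Among the interactions of the locus, Adarb2 was a star with inner and outer branches and Nr2f2 a plain star. Prox1, with 1 interaction, was the rim of a mesh that appeared only in its connected group. The connected group of Adarb2 was not a star alone, as it held 7 further interactions among anchors outside the window. Of possible pairs in each connected group, 21 of 105 were listed at Adarb2, 5 of 15 at Nr2f2 and 14 of 21 at Prox1. These fractions are not comparable. The Adarb2 and Nr2f2 groups spanned 1806 and 1492 kb, while the longest interaction of the VIP list was 995 kb. Some pairs of both groups thus lay beyond any listed distance, whereas the Prox1 group spanned 572 kb.

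**Figure D4:**
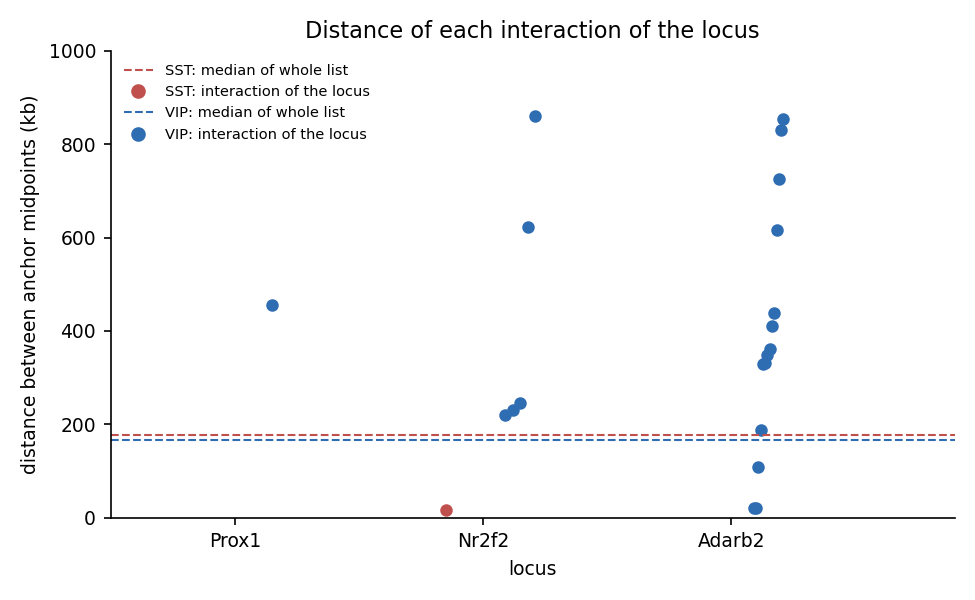
Points give the distance in kb between anchor midpoints for each interaction of a locus, in SST (red) and VIP (blue), and dashed lines give the median of each whole list (178 kb in SST, 167 kb in VIP). The 5 VIP points of Nr2f2 and the VIP point of Prox1 lie above both lines, while Adarb2 has points on either side.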

How the data were processed

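The authors deposited 1 text list of interactions per cell type, attached to replicate 1, with 6 columns and no header: chromosome, start and end of each anchor. Per the submitters' processing notes, HiC-Pro and build mm9 were used; the sources used here do not give the interaction caller, its threshold or any pooling of replicates. Wide or narrow anchors change how many interactions a locus can have. Positions are printed as in the files, where the first base may be numbered 0 or 1.

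Locus windows were taken as given, and all members are named. They and the tests were chosen with earlier results of these data known. An interaction was shared when an interaction of the other list overlapped it by at least 1 bp at both anchors. Distances are between anchor midpoints. Windows of the same width as each locus were laid from position 1 of each chromosome. The overlap and tiling steps were tested on simulated data in which shared interactions were identical in both lists, so partial overlaps were not tried. The simulated anchors lay too far apart to merge, so for merging only an unchanged count was checked. Other caudal or medial eminence genes were not counted, since an mm9 annotation was not used here. Promoters came from RefSeq, with all 3 genes matched by symbol. Software was scipy 1.17.1, numpy 2.4.6, matplotlib 3.10.9 and pandas 2.3.3 under Python 3.11.15.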

Additional observations from a re-analysis of the deposited data

How the results depend on the processing

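Of 70 values under alternatives, 54 stayed within 1.5 times the reported count or distance or within the interval of a share or ratio; 28 of these were a 0 that stayed 0, and the other 26 include the fall from 14 to 11 VIP interactions at Adarb2 when anchors within 5 kb were merged. With both anchors required inside the window, VIP counts were 7 at Adarb2, 0 at Nr2f2 and 0 at Prox1, the Nr2f2 ratio of VIP to SST was 0, which turns its direction, and the Adarb2 median distance was 187 kb. With interactions of up to 200 kb only, VIP counts were 4, 0 and 0 and the Nr2f2 ratio was again 0. The Adarb2 median was then 65.2 kb. By construction this limit drops long contacts, while requiring both anchors inside drops contacts that leave the window, whatever their length. Windows extended by 50 kb on each side gave 4 VIP interactions at Prox1. Merging anchors within 5 kb left 3 VIP and 0 SST interactions at Nr2f2, since its SST anchors become 1. Without the most connected anchor of the locus, a setting chosen after seeing the data, VIP counts were 4 at Adarb2, 0 at Nr2f2 and 0 at Prox1. The SST counts of 0 at Adarb2 and Prox1 and the shared percentages of 0 could not rise under these settings, since most are stricter than the reported rule and no further SST anchor was near enough for the wider ones, so they say nothing about stability. With the tiled windows moved by 0.5 of their width, 35 windows of 700 kb (2.20%) held at least 14 VIP and no SST interactions. No paired analysis was possible because values per replicate are not in the lists analysed, of which there is 1 per cell type; leaving out a replicate was not possible either. A ratio at Adarb2 and Prox1 and a stricter calling threshold could not be given, as SST has none listed there and the lists hold no score.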

Other observations

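The Adarb2 contacts continued beyond the locus window in VIP. The connected group that holds them had 15 anchors and 21 interactions between 6826041 and 8632274 on chromosome 13, a span of 1806 kb. No anchor of it overlapped an SST anchor, while 43.5% of all VIP anchors did. The SST list had no anchor in this span, so this is no further result. The 7 interactions outside the locus joined 6 anchors below the window, at distances of 288 to 886 kb with a median of 541 kb. The anchor 7187177 to 7214238 had 4 of them, to 6826041, 7578787, 7866438 and 8081908. The anchor 8081908 to 8092501 was the VIP anchor nearest to the window, 57.5 kb below it, and had no listed link to an anchor inside it.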
